A study of Mus musculus with 16 samples.

Results

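The Elovl genes encode the enzymes that lengthen fatty acids in the endoplasmic reticulum, and their transcripts are described here in mouse interscapular brown adipose tissue (BAT). The 6 members, Elovl1, Elovl3, Elovl4, Elovl5, Elovl6 and Elovl7, were chosen by family name around the induction of Elovl3 by isoproterenol. All 6 were found among the 15350 genes with a value in each library, and Elovl2 was not analysed here. The files identify the members as ENSMUSG00000006390 (Elovl1, chromosome 4), ENSMUSG00000038754 (Elovl3, 19), ENSMUSG00000032262 (Elovl4, 9), ENSMUSG00000032349 (Elovl5, 9), ENSMUSG00000041220 (Elovl6, 3) and ENSMUSG00000021696 (Elovl7, 13). Because the family was selected on the Elovl3 response, Elovl3 values are given as a description with no test. The other 5 genes were tested as paralogues.

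Messenger RNA was sequenced from 16 libraries, 4 in each of 4 groups of C57BL/6J mice. Wild-type (WT) and Ucp1-knockout (KO) mice carried minipumps that infused saline or isoproterenol, an agonist of beta-adrenergic receptors, at 60 mg per kg per day. Tissue was taken after 3 days, so saline controls of both genotypes also carried a pump. Ucp1 encodes the uncoupling protein by which brown fat makes heat. The labels used here do not give age, sex, the design of the Ucp1 allele or whether each library came from a separate animal. The p-values rest on the spread between libraries, part of which may be technical.

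Fatty acid elongation adds a pair of carbons from malonyl-CoA to an acyl-CoA in a cycle of condensation, reduction, dehydration and a last reduction. An ELOVL enzyme carries out the condensation, which is the slow step and sets which chain lengths and degrees of unsaturation are made. ELOVL3, known in brown fat as a cold-induced enzyme, and ELOVL6, which turns palmitate into stearate, act on saturated and monounsaturated chains. ELOVL1 and ELOVL7 also act on saturated chains and ELOVL1 supplies the very long acyl groups of sphingolipids. ELOVL5 elongates polyunsaturated chains, and ELOVL4 makes the extremely long chains of retina and skin.

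Promoter sequence was at hand for 5 of the 6 members, in 6 RefSeq entries of build GRCm38.p6, which differs from the mm39 build of the reads. The 4 promoters printed here belong to the genes called changed after isoproterenol, which were Elovl4, Elovl5 and Elovl6 in WT and Elovl1 in KO. For Elovl1 the first of its pair of annotated starts is shown. Each run covers 250 bases before the gene start and 30 after it, read 5′ to 3′ on the strand of the gene, and capitals mark every match to a searched motif.
Elovl1, chr4:118427843-118428122, plus strand: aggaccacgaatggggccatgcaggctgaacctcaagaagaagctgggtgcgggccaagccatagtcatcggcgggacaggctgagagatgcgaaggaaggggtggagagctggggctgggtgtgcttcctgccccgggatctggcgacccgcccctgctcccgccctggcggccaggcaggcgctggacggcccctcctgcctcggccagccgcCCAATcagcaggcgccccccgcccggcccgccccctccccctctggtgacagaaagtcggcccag
Elovl4, chr9:83806276-83806555, minus strand: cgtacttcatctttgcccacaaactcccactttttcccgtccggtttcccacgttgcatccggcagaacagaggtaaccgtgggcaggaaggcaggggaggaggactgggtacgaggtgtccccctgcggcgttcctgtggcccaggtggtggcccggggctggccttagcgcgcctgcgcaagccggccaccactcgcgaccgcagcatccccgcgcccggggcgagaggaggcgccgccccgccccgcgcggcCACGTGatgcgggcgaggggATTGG
Elovl5, chr9:77917115-77917394, plus strand: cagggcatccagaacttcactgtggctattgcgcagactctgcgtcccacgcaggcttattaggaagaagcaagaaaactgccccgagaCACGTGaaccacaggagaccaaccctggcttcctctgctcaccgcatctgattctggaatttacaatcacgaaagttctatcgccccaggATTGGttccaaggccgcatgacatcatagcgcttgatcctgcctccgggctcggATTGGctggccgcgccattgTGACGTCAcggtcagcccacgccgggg
Elovl6, chr3:129532136-129532415, plus strand: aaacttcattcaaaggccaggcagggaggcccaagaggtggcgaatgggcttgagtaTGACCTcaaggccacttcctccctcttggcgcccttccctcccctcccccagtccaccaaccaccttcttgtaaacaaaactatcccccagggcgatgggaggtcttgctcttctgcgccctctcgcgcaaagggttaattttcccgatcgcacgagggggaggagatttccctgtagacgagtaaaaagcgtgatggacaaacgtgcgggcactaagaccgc

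Motifs were searched on both strands from 250 bases before to 50 bases after the start. They were the cAMP response element TGACGTCA and its shorter form TGACG, the nuclear receptor motif AGGTCA, the estrogen-related receptor element TCAAGGTCA, the CCAAT box and the E-box CACGTG. TGACGTCA holds TGACG on both strands, and TCAAGGTCA holds AGGTCA. Among 32851 promoters of the same length, TGACGTCA occurred in 1.79%, TGACG in 20.8%, AGGTCA in 16.3%, TCAAGGTCA in 0.423%, CCAAT in 37.4% and CACGTG in 7.15%. The Elovl5 promoter held TGACGTCA beginning at base 4 after the start, and no other member entry held the full word. It also held CCAAT at -71 and -17 and CACGTG at -161. Elovl6 held AGGTCA at -193, and Elovl1 held CCAAT at -35. Elovl4 held CACGTG at base 6 and CCAAT at base 26 after the start. The Elovl7 entry held TGACG at -108 and -62, and the other Elovl1 start held AGGTCA at -95. A match is a run of letters and says nothing of binding.

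Reads over the listed genes numbered 9004515 to 20986735 per library, so 1 read was worth 0.0476 to 0.115 CPM (reads scaled to a library of fixed size). Ucp1 read 2298 to 3449 CPM in WT saline, 8905 to 18458 CPM in WT isoproterenol, 410 to 1156 CPM in KO saline and 19.0 to 2129 CPM in KO isoproterenol. It was lower in each KO library than in each WT library of the same treatment. The 4 KO isoproterenol libraries differed widely from each other. A score of 12 brown adipocyte markers, the mean log2 CPM after centring each gene, was -3.64, -0.96, -0.45 and 0.43 in replicates 1 to 4, against -0.08 to 1.08 in the other 12 libraries. The 12 markers include Ucp1, so the targeted gene itself enters this score. The 12 macrophage markers scored 3.22, 1.69, 2.88 and 0.80 in the same 4 libraries and -1.75 to 0.29 in the other 12. Replicate 1 of KO isoproterenol stood farthest apart, and results that rest on it are given with and without it. Fewer brown adipocytes and less RNA per brown adipocyte cannot be told apart in bulk tissue.

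In WT brown fat, 3 of the 5 tested paralogues rose after isoproterenol, Elovl6 by 6.41-fold, Elovl4 by 5.17-fold and Elovl5 by 1.58-fold, while Elovl3 was 173-fold higher. In KO brown fat none of those 3 was called, and Elovl1, which was not called in WT, rose by 2.85-fold. Under isoproterenol, Elovl6 was 9.76-fold lower in KO than in WT. The response of Elovl6 and that of Elovl1 differed between genotypes, in opposite directions. A difference in response did not pass for Elovl4 (adjusted p = 0.0930, limma) or Elovl5 (adjusted p = 0.147), so a loss of their rise in KO is not established. Calls use limma with Benjamini-Hochberg adjustment over the 15350 genes, at an adjusted p under 0.05, and folds are ratios of geometric means. Beside these member calls, 16.6% of all genes were called in the WT response and 48.6% in the KO response. The shares were 44.6% in KO against WT under isoproterenol and 24.7% in the interaction.

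**Figure D1:**
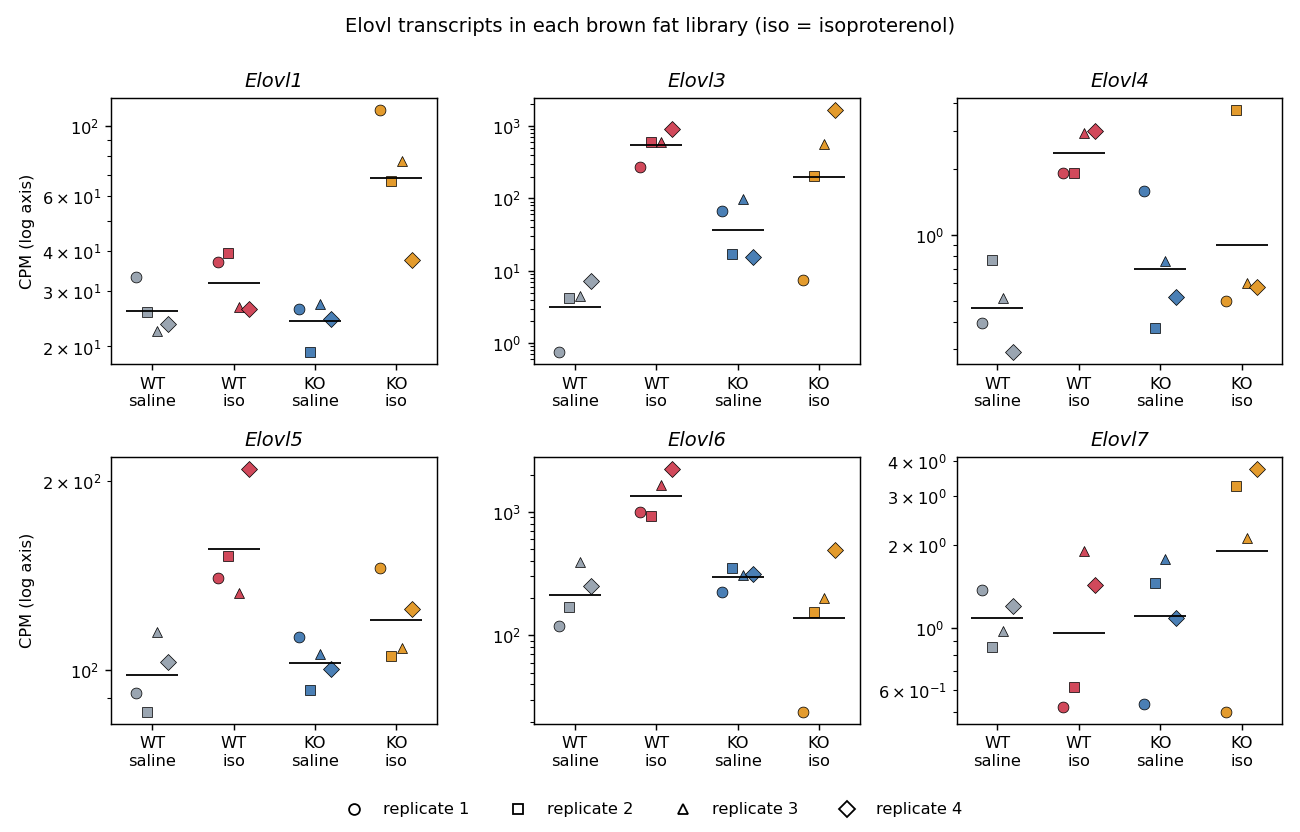
CPM of the 6 Elovl genes (log axis, scaled per panel) in each library, by group, with marker shape for the replicate and a line at the group's geometric mean. Elovl3 and Elovl6 are high in all 4 WT isoproterenol libraries and spread from 7.54 to 1683 CPM and from 24.1 to 489 CPM among the KO isoproterenol libraries, while Elovl1 is highest in KO isoproterenol replicate 1.

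Elovl3 read 0.750, 4.2, 4.42 and 7.26 CPM in WT saline replicates 1 to 4, which were 8 to 87 reads per library. In WT isoproterenol it read 274, 600.5, 599 and 927 CPM. Every WT isoproterenol library lay far above every WT saline library, with means of 600 ± 266 and 4.16 ± 2.67 CPM (SD, n = 4). The difference was 7.44 in log2 CPM, and 6.74 without WT saline replicate 1, the library with 8 reads. In KO saline Elovl3 read 67.2, 17.0, 99.1 and 15.7 CPM, and in KO isoproterenol it read 7.54, 203, 566 and 1683 CPM. The highest KO isoproterenol library was 223 times the lowest, and replicate 1 lay below all 4 KO saline libraries. The response in KO was 2.42 in log2 CPM, or 5.35-fold, with overlapping ranges. It was 3.98 without KO isoproterenol replicate 1 and 1.38 without replicate 4. Under isoproterenol KO minus WT was -1.49, and it was 0.07 without replicate 1 of KO isoproterenol.

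The saline libraries are the baseline of the induction on which the family was selected, so Elovl3 under saline is described with no test. Elovl3 was higher in all 4 KO libraries than in all 4 WT libraries. Means were 49.7 ± 40.7 CPM in KO and 4.16 ± 2.67 CPM in WT (SD, n = 4). The log2 difference was 3.53, or 11.5-fold, and it was 2.83 without WT saline replicate 1. In that comparison 0.0977% of genes were called and 7.19% had groups that did not overlap. Elovl3 was the 1 member of 6 whose groups did not overlap. Of the 5 tested paralogues limma called 0, and 0 had an unadjusted p under 0.05. They differed by -0.11 (Elovl1) to 0.59 (Elovl4) in log2 CPM, with adjusted p of 0.931 to 0.9996. Across all genes limma called 15, and 1061 had an unadjusted p under 0.05. The brown adipocyte score was 0.06 to 0.54 in KO saline and -0.08 to 0.27 in WT saline, and its part in the Elovl3 difference was not tested.

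Elovl6, the elongase of palmitate, read 119, 168, 392 and 249 CPM in WT saline and 989, 922, 1639.6 and 2205 CPM in WT isoproterenol. The groups did not overlap, and the rise was 2.68 in log2 CPM (SE 0.66, 95% interval 1.28 to 4.08, adjusted p = 0.0125, limma). In KO saline it read 223, 354, 307 and 312 CPM, and in KO isoproterenol 24.1, 153, 201 and 489 CPM. Of the 4 KO isoproterenol libraries, 3 were below all KO saline libraries and replicate 4 was above them. The KO response of -1.09 (95% interval -2.50 to 0.31) did not pass the test (adjusted p = 0.183), and over the alternatives the adjusted p ran from 0.0240 to 0.660. Leaving out KO isoproterenol replicate 4 gave -1.70 with an adjusted p of 0.0240, while leaving out replicate 1 gave -0.26.

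Under isoproterenol every KO library was below every WT library for Elovl6, with means of 217 ± 196 and 1439 ± 604 CPM (SD, n = 4). The difference was -3.29 in log2 CPM (SE 0.66, adjusted p = 0.00110, limma), and it was -2.45 without KO isoproterenol replicate 1 and -3.90 without replicate 4. The Elovl6 response in KO minus that in WT was -3.78 (SE 0.93, 95% interval -5.76 to -1.79, adjusted p = 0.0110). Both calls held under every alternative run. For KO against WT the adjusted p (limma) ran from 8.14e-05 to 0.0191, the highest in a fit of only those groups. For the interaction it ran from 8.96e-04 to 0.0281. The interaction was -2.94 without KO isoproterenol replicate 1 and -4.38 without replicate 4. The KO isoproterenol libraries stood in the same order, replicates 1, 2, 3 and 4 from low to high, for Elovl6, Elovl3, Ucp1 and the brown adipocyte score. That score includes Ucp1. The 12 brown adipocyte markers summed to 330 to 7853 CPM in KO isoproterenol and 15329 to 27219 CPM in WT isoproterenol. Ucp1, the targeted gene, gave 19.0 to 2129 CPM of the KO sums and 8905 to 18458 CPM of the WT sums. Of the 12 markers 0 were called higher and 8 lower in KO than in WT under isoproterenol, beside 44.6% of all genes called. Their part in the Elovl6 difference was not tested.

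**Figure D2:**
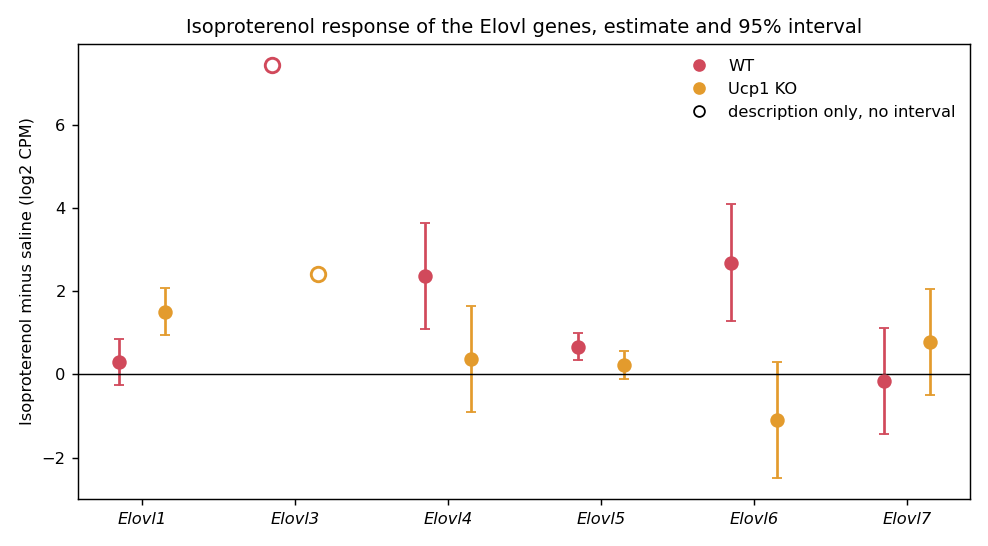
Isoproterenol minus saline in log2 CPM for each Elovl gene (estimates with 95% intervals from limma, 4 libraries a group) in WT and KO. Intervals lie above 0 for Elovl4, Elovl5 and Elovl6 in WT and for Elovl1 in KO, and open circles mark Elovl3, for which no interval is given.

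Elovl1, which makes saturated very long chains, read 33.2, 25.7, 22.4 and 23.5 CPM in WT saline and 37.1, 39.5, 26.6 and 26.4 CPM in WT isoproterenol. These ranges overlapped, and the difference of 0.30 (95% interval -0.26 to 0.85) did not pass the test (adjusted p = 0.479, limma). KO saline libraries read 26.2, 19.2, 27.2 and 24.4 CPM, and KO isoproterenol libraries read 112, 66.9, 77.5 and 37.6 CPM. All 4 KO isoproterenol libraries were above all 4 KO saline libraries. The rise was 1.51 in log2 CPM (SE 0.26, 95% interval 0.95 to 2.06, adjusted p = 2.97e-04). It was at least 1.27 under each alternative, and the call held in all 25.

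Under isoproterenol Elovl1 was higher in KO than in WT by 1.10 (SE 0.26, adjusted p = 0.00327, limma), although KO replicate 4 lay within the WT range. The KO response of Elovl1 exceeded the WT response by 1.21 (SE 0.37, adjusted p = 0.0276). That call was lost without WT saline replicate 1 (1.09, adjusted p = 0.0616), WT isoproterenol replicate 3 (1.12, 0.0586), WT isoproterenol replicate 4 (1.12, 0.0610) or KO saline replicate 2 (1.10, 0.0576). Its adjusted p over all alternatives ran from 0.00107 to 0.0616. Elovl1 in KO isoproterenol followed the order of the macrophage score, replicate 1 highest, then 3, 2 and 4. The neutrophil score (4.34, 2.95, 3.87 and 2.56 in replicates 1 to 4) and the fibroblast score (1.34, -0.52, 0.88 and -0.83) had that order too. All 12 macrophage markers rose in KO after isoproterenol, and 3 of 12 rose in WT, or 6 of 12 without KO isoproterenol replicate 1. Over all genes 48.6% were called in the KO response and 16.6% in the WT response. These are the same 12 macrophage markers that were scored above. The summed level of the macrophage markers was 1131 to 8562 CPM in KO isoproterenol and 615 to 1107 CPM in WT isoproterenol. It was 267 to 639 CPM in WT saline and 369 to 661 CPM in KO saline. The part of these cell types in the Elovl1 rise was not tested.

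**Figure D3:**
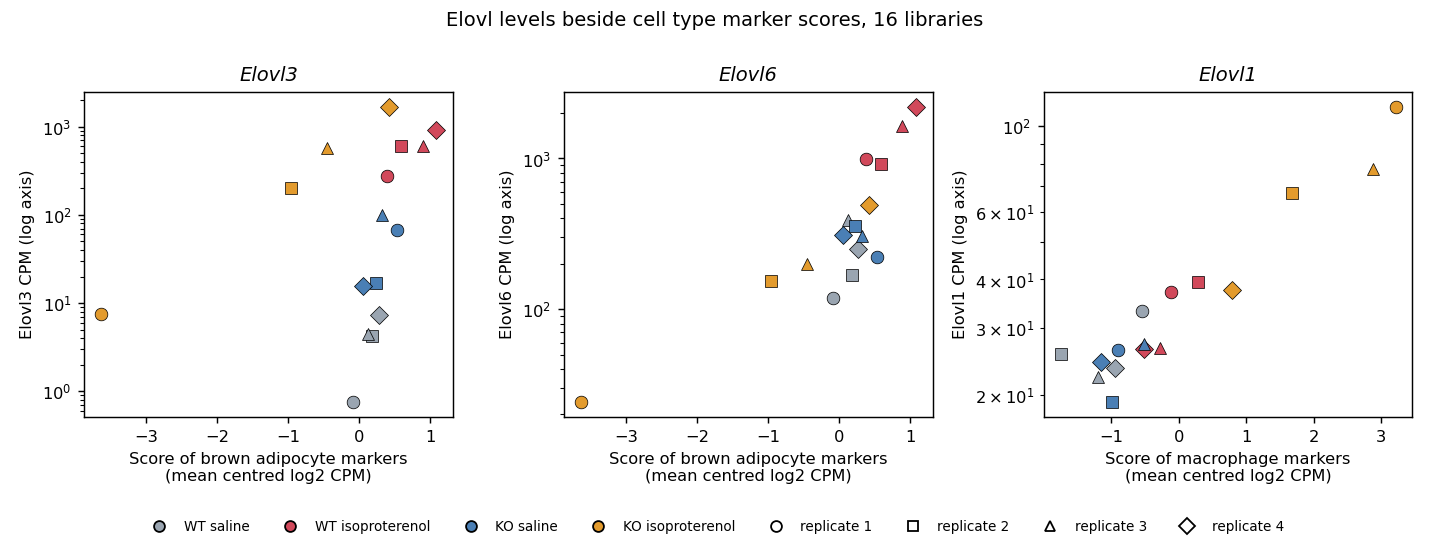
CPM (log axis) of Elovl3, Elovl6 and Elovl1 in the 16 libraries against the score of 12 brown adipocyte markers or of 12 macrophage markers (mean centred log2 CPM), with colour for group and shape for replicate. KO isoproterenol replicate 1 has the lowest brown adipocyte score, -3.64, with Elovl6 at 24.1 CPM, and the highest macrophage score, 3.22, with Elovl1 at 112 CPM.

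Cdc20, a cell division gene on the opposite strand, shares exon sequence with Elovl1, and the strand setting of the read counter is not given in the sources. Cdc20 reads were 37.4% to 47.5% of Elovl1 reads in WT isoproterenol, 5.94% to 20.2% in KO isoproterenol, 5.28% to 10.1% in WT saline and 3.51% to 7.08% in KO saline. Pitx3, opposite Elovl3, had 0.312% to 0.506% of the Elovl3 reads in WT isoproterenol and 0% to 1.65% in KO isoproterenol. It read 0.0238, 2.93, 5.25 and 27.8 CPM in KO isoproterenol replicates 1 to 4, the same order as Elovl3, and was at 0 reads in replicate 1. In WT saline, where Elovl3 had few reads, Pitx3 had 8.51% to 37.5% of its count. The antisense gene Gm35986 had at most 0.553% of the Elovl6 reads in any library. The libraries were strand-marking, per the labels, but the strand setting of the read counter is unknown. Whether reads from the opposite strand entered the counts of these pairs could therefore not be told.

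Elovl5, the elongase of polyunsaturated chains, varied least of the 6 by the ratio of its highest to its lowest library, 209 to 85.7 CPM. It read 91.8, 85.7, 115 and 103 CPM in WT saline and 139.9, 152, 132 and 209 CPM in WT isoproterenol. Each treated library was above each control, and the rise was 0.66 in log2 CPM (SE 0.15, 95% interval 0.34 to 0.99, adjusted p = 0.00905, limma). KO libraries read 113, 92.7, 106 and 100.3 CPM with saline and 145, 105, 108 and 125 CPM with isoproterenol. Those ranges overlapped, and the KO difference was 0.22 (95% interval -0.10 to 0.55, adjusted p = 0.244). With library totals as the scaling it was 0.41 and passed (adjusted p = 0.0374, range over alternatives 0.0374 to 0.516), in a fit whose median over all genes was 0.18. Under isoproterenol KO minus WT was -0.38 (adjusted p = 0.0571), and the interaction was -0.44 (adjusted p = 0.147). The first of these passed without WT isoproterenol replicate 3 or KO isoproterenol replicate 1, with adjusted p from 0.0231 to 0.531 over the alternatives.

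Elovl4 was near the detection limit, with 3 to 60 reads per library. It read 0.397, 0.767, 0.512 and 0.291 CPM in WT saline and 1.93, 1.92, 2.93 and 2.98 CPM in WT isoproterenol. Despite the small counts the groups did not overlap, at 3 to 8 against 20 to 42 reads. The rise was 2.37 in log2 CPM (SE 0.60, 95% interval 1.10 to 3.64, adjusted p = 0.0144, limma), and it was 1.20 with 1 CPM added before the log. KO saline libraries read 1.59, 0.375, 0.762 and 0.517 CPM, and KO isoproterenol libraries read 0.499, 3.74, 0.601 and 0.576 CPM. Only replicate 2 of KO isoproterenol reached the WT isoproterenol range. The KO difference was 0.36 (adjusted p = 0.642), and it was -0.32 without that replicate. Under isoproterenol KO minus WT was -1.41 (adjusted p = 0.0662). Without KO isoproterenol replicate 2 it was -2.10 and passed (adjusted p = 0.00297, range over alternatives 0.00297 to 0.158). The interaction was -2.004 (adjusted p = 0.0930) and passed without that replicate (-2.69, adjusted p = 0.0112, range 0.0112 to 0.174).

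Elovl7 was also low, at 5 to 74 reads per library. It read 1.37, 0.858, 0.977 and 1.20 CPM in WT saline, 0.517, 0.611, 1.90 and 1.44 CPM in WT isoproterenol and 0.531, 1.46, 1.78 and 1.09 CPM in KO saline. Those 3 groups overlapped. In KO isoproterenol it read 0.499, 3.24, 2.12 and 3.73 CPM, with 3 libraries above all others in the study and replicate 1 at the bottom. No Elovl7 contrast passed, with a KO response of 0.77 (95% interval -0.50 to 2.04, adjusted p = 0.302, limma). Without KO isoproterenol replicate 1 the KO response was 1.41 and passed (adjusted p = 0.0261, range over alternatives 0.0261 to 0.610). KO minus WT under isoproterenol then also passed, at 1.61 (adjusted p = 0.0141, range 0.0141 to 0.420) against 0.97 with all libraries.

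Among all 15350 genes limma called 16.6% in the WT response, 48.6% in the KO response, 44.6% in KO against WT under isoproterenol and 24.7% in the interaction. In a fit of the WT groups alone the genes called in the WT response numbered 5297 with the replicate number as a block and 4923 without it, against 2546 here, and the same 3 paralogues were called. Of the 5 tested paralogues, 3, 1, 2 and 2 were called in these comparisons. The calls in KO, 1 of 5, were a smaller share than the 48.6% over all genes. Groups did not overlap for 32.9% of genes in the WT response, 37.5% in the KO response and 35.5% in KO against WT under isoproterenol. Of the 5 paralogues the numbers without overlap were 3, 1 and 1.

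Levels were compared between members per kilobase of merged exon length, as CPM per kb. In WT saline the order was Elovl6 (36.1), Elovl5 (28.1), Elovl1 (9.61), Elovl3 (2.11), Elovl7 (0.274) and Elovl4 (0.162). The ranges of Elovl6 and Elovl5 overlapped, as did those of Elovl7 and Elovl4, and the others were separate. In WT isoproterenol the order was Elovl3 (304), Elovl6 (224), Elovl5 (44.9), Elovl1 (11.9), Elovl4 (0.806) and Elovl7 (0.278), and only the ranges of Elovl3 and Elovl6 overlapped between neighbours. Elovl3 was thus the fourth most abundant member in WT saline and led the mean in WT isoproterenol, above Elovl6 in 3 of 4 libraries.

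KO saline began with Elovl6 (46.5) and went on with Elovl5 (29.2), Elovl3 (25.2), Elovl1 (8.90), Elovl7 (0.303) and Elovl4 (0.268) in CPM per kb. Neighbours overlapped from Elovl5 through Elovl1 and again between Elovl7 and Elovl4. KO isoproterenol gave Elovl3 (311), Elovl5 (34.3), Elovl6 (33.7), Elovl1 (27.0), Elovl7 (0.598) and Elovl4 (0.447). There the first 4 members overlapped from neighbour to neighbour, so their order did not exceed the spread between libraries. The median ratio of Elovl3 to Elovl6 per kb was 0.0590 in WT saline, 1.28 in WT isoproterenol, 0.572 in KO saline and 6.74 in KO isoproterenol. Both genes were low in KO isoproterenol replicate 1, where that ratio was 1.02, the lowest of its group.

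**Figure D4:**
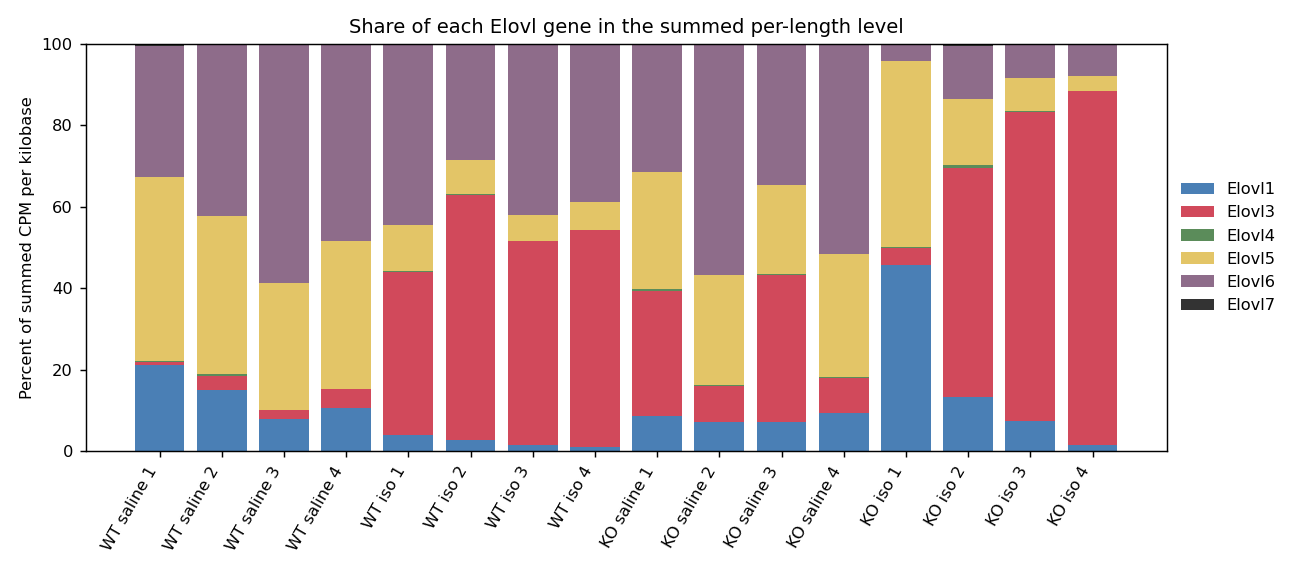
Share of each Elovl gene in the summed CPM per kb of the 6 members, as stacked bars, 1 per library. Elovl3 makes up 0.659% to 4.56% in WT saline and 40.0% to 60.1% in WT isoproterenol, and in KO isoproterenol it runs from 4.23% in replicate 1 to 87.1% in replicate 4.

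The summed per-length level of the family had a median of 71.6 CPM per kb in WT saline, 556 in WT isoproterenol, 104 in KO saline and 280 in KO isoproterenol. Elovl6 held 45.1% ± 11 of the sum in WT saline, 38.4% ± 7.07 in WT isoproterenol, 43.4% ± 12.4 in KO saline and 8.30% ± 3.64 in KO isoproterenol (SD, n = 4). Its share was thus lower in each KO isoproterenol library, at most 13%, than in any other library, at least 28.4%. Elovl3 is part of the sum, so a low share is not always a low Elovl6 level. In KO isoproterenol replicate 4 Elovl3 held 87.1%, and Elovl6 read 489 CPM. That was above its highest WT saline library, 392 CPM, and its highest KO saline library, 354 CPM. Elovl1 held 1.41% in KO isoproterenol replicate 4 and 45.6% in replicate 1.

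Across the 16 libraries, the genes whose log2 CPM was most like Elovl3 by Pearson r, among 14272 genes with a mean of at least 1 CPM, were Mfsd2a (0.957), Gk (0.941) and Pank3 (0.926). Mfsd2a encodes a lysophospholipid transporter, Gk glycerol kinase and Pank3 a pantothenate kinase. Mfsd2a averaged 0.386 CPM in WT saline, 78.6 in WT isoproterenol, 2.18 in KO saline and 87.3 in KO isoproterenol. For Elovl6 the nearest were Letm1 (0.967), Yars2 (0.964) and Nudt19 (0.958), and for Elovl1 they were Fes (0.991), Gnai2 (0.987) and Fam129b (0.984). Elovl5 was nearest to Sorl1 (0.896), Slc44a1 (0.848) and Isy1 (0.834). The low-count members gave Taf13 (0.867) and Pcnx4 (0.842) for Elovl4 and Strbp (0.872), Epn3 (0.853) and Serinc2 (0.838) for Elovl7. These values describe 16 libraries in 4 groups, so group differences enter them. Without KO isoproterenol replicate 1 the leading values were 0.955 for Mfsd2a with Elovl3, 0.948 for Letm1 with Elovl6 and 0.985 for Fes with Elovl1. Between members, r was 0.65 for Elovl3 with Elovl4, 0.62 for Elovl3 with Elovl6 and -0.53 for Elovl1 with Elovl6.

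The enzymes that complete the elongation cycle are Hsd17b12 (ketoacyl reductase), Hacd1 to Hacd4 (dehydratases) and Tecr (enoyl reductase). In WT, 2 of these 6 rose and 0 fell, beside 16.6% of all genes called, with a list median of 0.66 in log2 CPM against -0.02 over all genes. Hsd17b12 went from 245 to 820 CPM (1.74, SE 0.37, adjusted p = 0.00584, limma) and Hacd2 from 71.2 to 269 CPM (1.83, SE 0.51, adjusted p = 0.0247). In KO neither was called, with 0.35 for Hsd17b12 and 0.41 for Hacd2. There Hacd4 rose from 5.36 to 37.4 CPM (2.38, adjusted p = 0.00125) and Tecr fell from 278 to 112 CPM (-1.46, adjusted p = 8.58e-04). The KO list median was 0.24, and without KO isoproterenol replicate 1 it was 0.50, with 2 of 6 called higher and 1 lower. The Tecr response differed between genotypes (-1.32, adjusted p = 0.0310), and the Hsd17b12 difference of -1.40 did not pass (adjusted p = 0.0656). Under isoproterenol 1 of 6 was higher in KO (Hacd4, 1.27) and 3 were lower (Tecr -1.23, Hsd17b12 -1.19, Hacd1 -0.73). Without KO isoproterenol replicate 1 those counts were 0 and 2. Over all genes 48.6% were called in the KO response and 44.6% in KO against WT under isoproterenol.

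**Figure D5:**
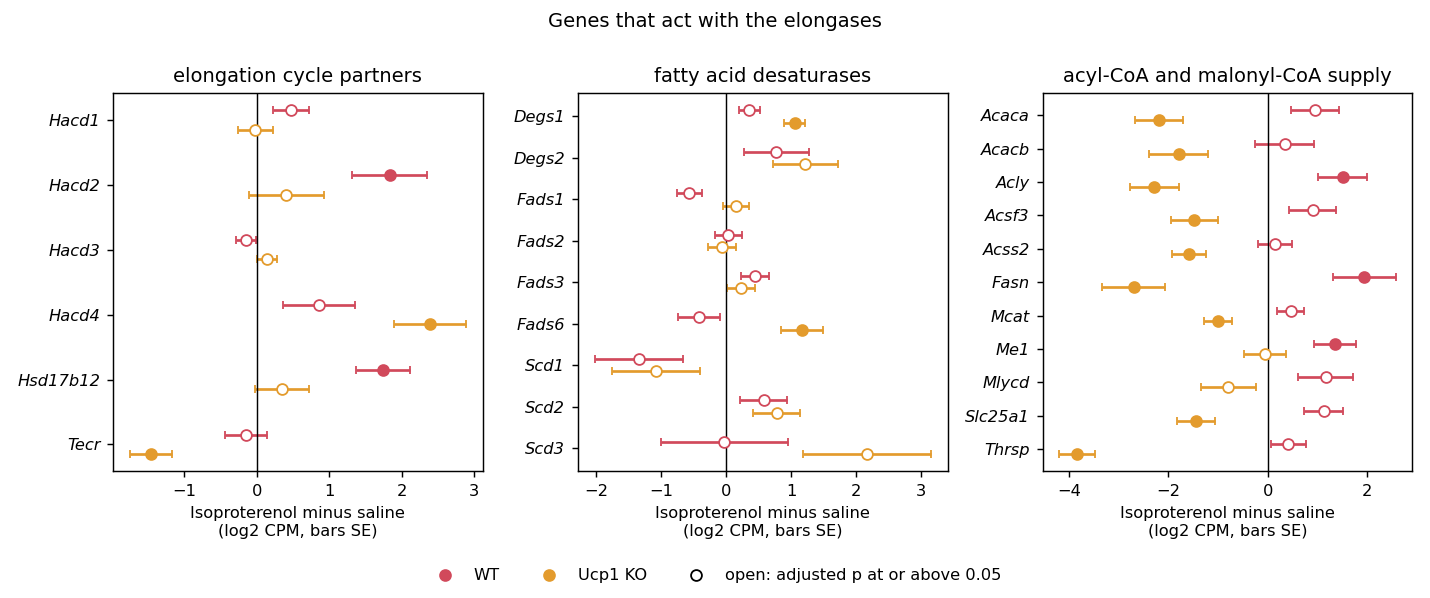
Isoproterenol minus saline in log2 CPM (bars SE, 4 libraries a group) for the elongation cycle partners, the desaturases and the genes of acyl-CoA and malonyl-CoA supply, in WT and KO. Filled points passed at an adjusted p under 0.05; 9 of 11 supply genes lie filled to the left of 0 in KO.

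Malonyl-CoA is the carbon donor and palmitate the substrate of ELOVL6. A list of 11 genes around their supply includes Acly, Acaca, Acacb and Fasn. Not every gene on it makes these compounds, so the counts are not a measure of supply. In WT 3 of 11 rose, Fasn (1.95), Acly (1.51) and Me1 (1.35), and 0 fell, beside 16.6% of all genes called. Without KO isoproterenol replicate 1, which enters the shared spread, 5 of 11 were called higher in WT. In KO 0 rose and 9 fell, beside 48.6% of all genes called, with a list median of -1.58 against -0.00 over all genes. Fasn, the fatty acid synthase, went from 7113 to 942 CPM (-2.70, SE 0.63, adjusted p = 0.00264, limma). Thrsp, a lipogenic protein, went from 2650.5 to 194 CPM (-3.83, SE 0.36, adjusted p = 1.86e-06), and Acly, ATP citrate lyase, from 1276 to 228 CPM (-2.28). The response was lower in KO than in WT for 8 of 11, beside 24.7% of all genes called, led by Fasn (-4.65), Thrsp (-4.25) and Acly (-3.80). The 9 calls in KO, the 10 lower calls in KO against WT under isoproterenol and the 8 interaction calls were the same in number without KO isoproterenol replicate 1. Brown adipocyte markers fell in KO beside them, 6 of 12, a share near the 48.6% of all genes. So did 7 of 10 pan-adipocyte markers while 1 rose, and the part of both lists was not tested.

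Desaturases place double bonds in the chains that elongases make or use. None of 9 measured was called in WT, where Scd1, the main stearoyl-CoA desaturase, averaged 17893 CPM with saline and 6917 CPM with isoproterenol (-1.34, adjusted p = 0.202, limma), with no overlap between groups. At an unadjusted p under 0.05 the list had 2 of 9 in WT. Without KO isoproterenol replicate 1, 1 of 9 was called lower in WT. In KO 2 of 9 rose and 0 fell, the sphingolipid desaturase Degs1 (1.06, SE 0.16, adjusted p = 9.48e-05) and Fads6 (1.17, SE 0.32, adjusted p = 0.00753). Under isoproterenol 4 were higher in KO and 0 lower, Scd3 (3.17), Fads6 (1.36), Degs1 (0.79) and Fads1 (0.72). Over all genes 44.6% were called in that comparison and 48.6% in the KO response. The 4 of 9 is thus a share near the background, and the 2 of 9 lies below it. Scd genes are close copies, so reads may be split between them. Degs1 (0.70) and Fads6 (1.59) also differed in the interaction, where 24.7% of all genes were called.

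Acyl-CoA synthetases activate fatty acids before elongation. In WT 3 of 9 measured rose and 0 fell, Acsl5 (2.10), Acsl3 (1.26) and Slc27a3 (0.96), beside 16.6% of all genes called. In KO 3 rose and 1 fell, and the largest changes were Slc27a2 (-2.60), Acsbg1 (1.97) and Acsl4 (1.26). The 4 of 9 called in KO stand beside 48.6% of all genes, so the share is near the background. The Acsl5 response differed in KO by -2.51 in log2 CPM (adjusted p = 0.00410, limma) and the Acsl4 response by 1.24 (adjusted p = 0.0121). Among 9 measured sphingoid base and ceramide enzymes, which use very long acyl-CoA, 3 rose and 2 fell in KO. They include Cers6 (2.90), Sptlc2 (1.70) and Kdsr (-1.06), and with all libraries the share is near the 48.6%. Without KO isoproterenol replicate 1, 5 rose and 2 fell, and the list median went from 0.28 to 0.74. All genes called then numbered 6961 of 15350, so that share was above the background. In WT 1 rose and 2 fell, Sptlc1 (0.56), Kdsr (-0.93) and Cers2 (-0.51), beside 16.6% of all genes called. Cers6, a ceramide synthase, averaged 3.42 CPM in KO saline and 42.7 CPM in KO isoproterenol, and its response differed from that in WT by 2.62 (adjusted p = 0.0327).

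Peroxisomal enzymes shorten very long chains. In this list of 12, 1 rose and 1 fell in WT, Acaa1b (3.31) and the transporter Abcd2 (-1.51). In KO 1 rose and 3 fell, including Acaa1b (3.10), Abcd2 (-1.01) and Acaa1a (-0.87). These counts stand beside 16.6% of all genes called in WT and 48.6% in KO, near the former and below the latter. In WT 3 of 12 were called higher and 1 lower without KO isoproterenol replicate 1. Acaa1a and Acaa1b are near-identical copies, so their split is uncertain. Regulators linked to elongase genes numbered 23, and 2 rose and 0 fell in WT, Nr1h3 (0.77), the liver X receptor alpha, and Mlx (0.61). In KO 1 rose and 11 fell, including Ppara (-3.42) and Ppargc1b (-2.50), so 12 of 23 were called beside 48.6% of all genes. Under isoproterenol 0 of 23 were higher and 11 lower in KO, a share near the 44.6% of all genes called. Without KO isoproterenol replicate 1 those counts were 2 and 8. The response of 5 of 23 was lower in KO, beside 24.7% of all genes called, including Mlxipl (-2.01) and Esrra (-1.95).

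Over the 79 measured genes of these 7 lists, of 86 listed, 12 rose and 3 fell in WT with a median of 0.29, and 11 rose and 27 fell in KO with a median of -0.31. Medians over all genes were -0.02 and -0.00. In the shared fit, the 15 of 79 called in WT and 38 of 79 in KO are shares near the 16.6% and 48.6% called among all genes. In a fit of the WT groups alone 37 of 79 were called in WT, both with the replicate number as a block and without it. All genes called there numbered 5297 with the block and 4923 without it, of 15350. In those fits the share of the lists was above that of all genes. None was called between genotypes under saline (limma), and 5 had an unadjusted p under 0.05. Under isoproterenol 11 were higher and 32 lower in KO, and 6 and 16 were called higher and lower in the interaction. Over all genes 44.6% were called under isoproterenol and 24.7% in the interaction.

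The 5 measured neutrophil markers rose in KO, 5 of 5, and 3 of 5 rose in WT, with summed levels of 54.0 to 249 CPM in KO isoproterenol and 9.41 to 17.1 CPM in WT isoproterenol. Lymphocyte markers fell in KO in 3 of 8, or 5 of 8 without KO isoproterenol replicate 1, and skeletal muscle markers in 1 of 11. Muscle markers summed to 107 to 9319 CPM in WT saline and 19.7 to 735 CPM in KO isoproterenol, so libraries within a group differed. Endothelial markers rose in 3 of 8 in WT and 4 of 8 in KO, fibroblast markers in 0 and 3 of 9. Schwann cell markers had 1 higher of 7 in WT and 1 higher and 1 lower in KO. Of 9 skin and sebaceous gland markers listed only 5 had a value, among them Scd3, which is also on the desaturase list. Of those 5, 1 rose in each genotype, or 3 without KO isoproterenol replicate 1. Over all genes 16.6% were called in the WT response and 48.6% in the KO response. With all libraries the KO shares of lymphocyte, muscle, endothelial and fibroblast markers were near or below 48.6%. No change of those cell types is read from them. No measured marker was at 0 reads in all libraries of a group.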

How the data were processed

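The deposited values are log2 CPM per Ensembl gene and library. The authors used STAR, limma and the mm39 build, per the submitters' processing notes, and their versions, annotation and read counter are not given in the sources. Libraries were strand-marking mRNA preparations read with 75 bp single reads, per the labels. Each log2 value was the logarithm of whole reads plus 0.5, times a library step, and reads recovered this way were whole within 1e-06 for 100% of values. The deposited library size differed by at most 0.000423% from the read total times a trimmed-mean (TMM) factor. CPM printed here is 2 to the power of the deposited value. Its floor of 3 reads was 0.143 to 0.345 CPM, which covers counting error only.

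A model with 4 group means over 16 libraries was fitted to the log2 values in limma 3.58.1 (R 4.3.3, statmod 1.5.0), with trended, robust empirical Bayes moderation and 12 residual degrees of freedom. The plan named a count test, which was replaced because the values are log2. The 5 contrasts were adjusted over 15350 genes by Benjamini-Hochberg. The fit was tested on simulated data. Symbols were found for 15320 identifiers. Lengths are merged exons of a GENCODE annotation of another build.

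Replicate numbers come from the titles. In 3 KO saline libraries the header gives another number. The treatment text of saline samples describes isoproterenol, and their treatment characteristic was used. Same-numbered WT saline and WT isoproterenol libraries deviated together (r of 0.21 to 0.54, over 0.1 in 4 of 4 pairs), a pairing that comes from the data and not the labels, and no other pair of groups had all 4 over 0.1. Members and gene lists were chosen with earlier results of these data known. All members, the cycle partners and the desaturases could be named, and of each other list at most the 3 called genes with the largest change per contrast. The 3 genes most like each member were also named, and 2 genes that these rules name are not reported here. Alternatives covered scaling, filters, pseudocount, moderation, samples in the fit, a replicate block, observation weights and leaving out each library.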

Additional observations from a re-analysis of the deposited data

Results flagged for a closer look

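In KO isoproterenol, Elovl4 replicate 2 stood apart at 3.74 CPM, or 60 reads, against 0.499 to 0.601 CPM in the other 3 libraries. Its gap to them exceeded Dixon's 95% limit for 4 samples. It was 1 of 24 gene and group combinations examined, and chance flags about 1 in 20.

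The isoproterenol response of Elovl1 was higher in KO than in WT by 1.21 in log2 CPM (adjusted p = 0.0276, limma interaction), with 4 of 4 KO isoproterenol libraries above all KO saline libraries. That interaction call was lost in some of the fits that left out 1 library, with an adjusted p (limma) up to 0.0616. The Elovl6 response differed the other way, by -3.78 (adjusted p = 0.0110), with 4 of 4 WT isoproterenol libraries above all WT saline libraries and 3 of 4 KO isoproterenol libraries below all KO saline libraries. Among all genes, 24.7% were called in the interaction. Groups did not overlap for 37.5% of genes in the KO response and 32.9% in the WT response.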

How the results depend on the processing

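Of 750 recomputed member changes, 724 kept direction and call, 10 gained a call, 4 lost one and 12 changed sign. Many of the 750 had little or no room to move, so the total is not a measure of robustness. The TMM setting repeats the deposited scaling. Leaving out a library from outside the contrast keeps the estimate and can alter only its p. Elovl3 has no call and enters by direction alone. Calls of Elovl4, Elovl5 and Elovl6 in WT, of Elovl1 in KO, of Elovl1 and Elovl6 between genotypes under isoproterenol and of the Elovl6 interaction held in every alternative run. Some came close to the threshold of 0.05. In WT the adjusted p (limma) ran up to 0.0466 for Elovl4, 0.0350 for Elovl5 and 0.0496 for Elovl6. For Elovl1 between genotypes under isoproterenol it ran up to 0.0314. The planned edgeR and DESeq2 fits were not run, because the values are log2 CPM. Depth limits Elovl4 and Elovl7, at 3 to 74 reads per library.

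Fitted on the groups of each contrast alone, pathway genes called numbered 37 in WT (15 in the shared fit), 25 in KO (38), 1 between genotypes under saline (0) and 25 under isoproterenol (43). All genes called then numbered 4923 in WT (2546), 5178 in KO (7460), 50 under saline (15) and 4639 under isoproterenol (6853). Fewer samples enter these fits, and the cause of the differences was not tested. With library totals, 2 members were called in KO (1 with the deposited scaling), and Elovl7 between genotypes under saline was -0.0072 against 0.0309. That scaling moved the median of all genes to -0.13 in WT, 0.18 in KO, 0.27 between genotypes under isoproterenol and 0.34 in the interaction. Higher and lower calls became 770 and 1748 in WT (1167 and 1379), 4493 and 2939 in KO (3647 and 3813), 5030 and 2527 under isoproterenol (3311 and 3542) and 2895 and 1477 in the interaction (1674 and 2113). With longest-transcript lengths the Elovl1 share in KO saline was 10.6%, against 8.15%.

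Leaving out 1 library at a time, called members numbered 1 to 2 in KO, 2 to 4 between genotypes under isoproterenol and 1 to 3 in the interaction. Pathway genes called ran from 7 to 22 in WT, 0 to 1 under saline and 18 to 39 in the interaction, and all genes called from 1623 to 3640 in WT and 4 to 37 under saline. The highest counts under saline came without KO isoproterenol replicate 1. Changes that crossed 0 were Elovl7 in WT (-0.50 to 0.13), Elovl4 in KO (-0.32 to 0.76), Elovl1 (-0.1768 to 0.0129), Elovl5 (-0.0024 to 0.1382) and Elovl7 (-0.20 to 0.38) under saline, and Elovl3 between genotypes under isoproterenol (-2.5284 to 0.0724).

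By the title numbers, same-numbered libraries of different groups had correlated deviations of -0.43 to 0.54, over 0.1 in 10 of 24 pairs and in 4 of 4 between the WT groups. By the header numbers it was 13 of 24 pairs. Between WT saline and KO saline it was 0 of 4 by the titles and 3 of 4 by the headers. With the replicate block in a fit of the WT groups alone, added after the data were seen, 37 pathway genes and 5297 genes in all were called in WT, against 37 and 4923 in that fit without it. With a replicate block, 2276 genes were called in WT (2546 without it), 7315 in KO, 11 under saline, 6683 under isoproterenol and 3718 in the interaction. The member calls did not change under it. With the header numbers as a replicate block, added after the data were seen, Elovl4 was also called under isoproterenol (-1.41, adjusted p = 0.0378), as it was with observation weights, also added then.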
